A study of Urocitellus parryii with 44 samples.

Results

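Chromatin modifiers and remodellers are the enzymes and complexes that decide how tightly DNA is packed and which genes can be read. In brown adipose tissue of arctic ground squirrels (Urocitellus parryii), the fat that these hibernators burn to make heat, their transcripts were compared between animals in winter torpor and animals active in August. The members were chosen by gene symbol alone: every probe whose only symbol begins with Hdac, Kdm, Kmt, Dnmt or Smarc, or with Sirt, Kat, Chd, Brd or Tet and a digit. This gave 74 of the 11786 genes on the membranes, with 179 of 38400 probes, of which 25070 carry a single symbol. The rule used no measured value. A further 15 probes that carry such a symbol beside another one were left out.

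Histone acetyltransferases (Kat) and methyltransferases (Kmt) write marks on histones, whereas deacetylases (Hdac, Sirt) and demethylases (Kdm) remove them. Dnmt enzymes methylate DNA, Tet enzymes oxidise that methylation as a step to its removal, Smarc and Chd proteins use ATP to move or evict nucleosomes, and Brd proteins bind acetylated lysines through bromodomains. Several of these proteins, among them Hdac3, Sirt1, Kdm1a and Kdm3a, are known from mice as regulators of thermogenic genes in brown fat.

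Mouse cDNA membranes of 4 designs (MA07, MA08, MA10 and MA11), which hold 9600 probes apiece, were hybridised with total RNA labelled with 33P. There were 3 summer active and 5 torpid squirrels. For 3 of these RNAs (summer 1, summer 2 and torpor 5) duplicate measurements exist, and their mean was used as the animal's value. Season and activity state cannot be told apart in this design, and the labels give neither sex, age nor the stage of the torpor bout. The deposited value is a spot's intensity relative to the median of its column, so that 0 on the log2 scale is the typical spot of that membrane. Differences are torpor minus summer on this scale, and values of single animals are listed in the order of summer animals 1 to 3 and torpid animals 1 to 5.

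Because squirrel RNA was hybridised to mouse cDNA, gene symbols are those of the mouse. Of the 74 symbols, 71 match a gene of the squirrel's RefSeq annotation, the others being Brd8, Dnmt3l and Kmt5c. Genes were covered by 1 to 6 tested probes, and different probes of a gene may detect its transcript with different efficiency. Of 12 listed brown adipocyte genes, 6 were measured (Dio2, Ppargc1a, Cidea, Lpl, Prdm16 and Pparg), with 10 probes and none called between torpor and summer. Ucp1, the defining marker, was not analysed here, and these values do not show the identity of the tissue, which is taken from the labels. Over lists for 8 cell types, 76 probes were tested and 0 passed limma's adjusted p threshold, with 4 higher (5.26%, against 6.39% of all probes) and 9 lower in torpor (11.8%, against 5.18%) at an unadjusted p under 0.05. The part of the markers in the results on chromatin genes was not tested. In a bulk sample, fewer cells of a type and less RNA per cell cannot be told apart.

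No chromatin probe passed the test. Of the 179, 175 were measured in 2 or more animals of both groups and were tested, which covered all 74 genes. With limma and Benjamini-Hochberg adjustment over the 37848 tested probes of all membranes, 0 of 175 had an adjusted p under 0.05, where 0.309% of all probes did (117 probes). At an unadjusted p under 0.05 there were 14 members, or 8.0%, against 11.6% of all probes. Of these, 7 were higher in torpor (4.0% against 6.39% of all probes) and 7 were lower (4.0% against 5.18%). The values of the torpid and summer animals did not overlap for 11 members, or 6.29%, against 8.50% of all probes. Torpor lay above summer in 6 of them (4.37% of all probes) and below it in 5 (4.13% of all probes).

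The differences of the members were spread like those of the membranes as a whole. Positive differences were found for 86 probes and negative ones for 89. The median difference was -0.01 and the quartiles were -0.26 and 0.27, with -0.26 and 0.27 as the quartiles over all probes. Single differences ran from -1.04 to 1.34, and 5 of 175 (2.86%, against 4.71% of all probes) were larger than 1 in size, which is 2-fold.

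How small a change could have been seen is set by the number of animals. The median standard error of a member was 0.29, the same as over all probes. For 96 of the 175 probes (54.9%, against 54.3% of all probes) the 95% interval lay within 1 log2 unit of 0, so that a change of more than 2-fold lies outside it. For the other probes the interval reaches beyond 2-fold in at least 1 direction, and a missing call there does not show equal levels. The duplicates of a split RNA differed by a median of 0.40 for summer animal 1, 0.42 for summer animal 2 and 0.31 for torpid animal 5 over the members. They differed by more than 1 for 31 of 168, 37 of 171 and 14 of 171 probes. Leaving out 1 animal moved the difference by over 1.5 times, or turned its sign, for 141 of the members. Differences near 0 reach this mark easily, and no share over all probes is given here. Of the 20 probes that led a family or were named for groups without overlap, 5 reached it. MA10 was the noisiest membrane, with a median standard error of 0.43 over its 49 members.

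**Figure D1:**
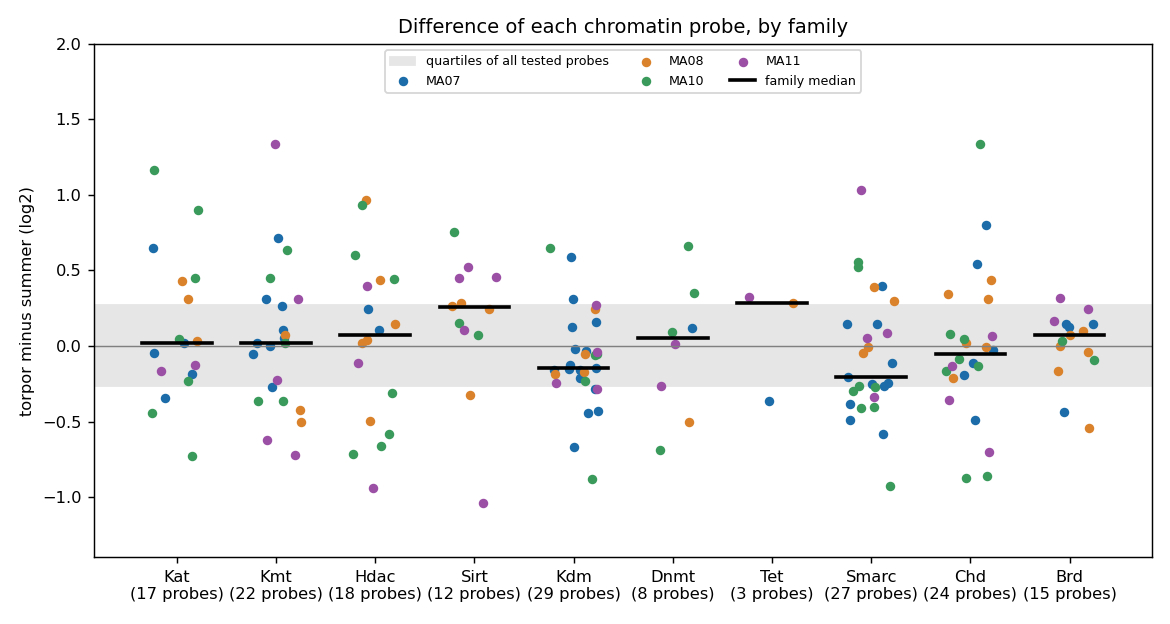
Torpor minus summer difference on the log2 scale (vertical axis) for each of the 175 tested chromatin probes, grouped by family (horizontal axis) and coloured by membrane. Black bars are family medians and the grey band spans the quartiles of all 37848 tested probes. The Kdm and Smarc medians lie at -0.15 and -0.21, the Sirt median at 0.26, and most points of every family lie between -1 and 1.

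By family, the demethylases and the Smarc remodellers leaned to lower and the sirtuins to higher values in torpor, with 0 calls in each of the 10 families. Of the 29 Kdm probes, 22 were negative, with a median of -0.15, and 10 of 13 Kdm genes had a negative median. Of the 27 Smarc probes, 17 were negative, with a median of -0.21, and 8 of 11 Smarc genes had a negative median. Of the 12 Sirt probes, 10 were positive, with a median of 0.26, and none of the 4 sirtuin genes had a negative median. Over all tested probes, 50.0% were positive. The remaining medians were 0.02 for Kat (9 of 17 positive), 0.02 for Kmt (12 of 22), 0.07 for Hdac (11 of 18), 0.05 for Dnmt (5 of 8), 0.28 for Tet (2 of 3), -0.06 for Chd (10 of 24) and 0.08 for Brd (10 of 15).

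Single animals were set side by side by taking, in each animal, the median over a family's probes after each probe was centred on the mid-point of its group means. The Kdm medians were 0.08, 0.15 and 0.06 in summer and 0.03, 0.00, -0.13, 0.06 and -0.07 in torpor. Kdm was the only family of the 10 whose groups did not overlap, and its highest torpid animal came within 0.01 of its lowest summer animal. For the sirtuins the medians were -0.21, -0.17 and 0.00 in summer and 0.06, -0.07, 0.18, 0.46 and 0.09 in torpor. There 4 of 5 torpid animals lay above every summer animal, and torpid animal 2 lay below summer animal 3. The Smarc medians differed by only -0.03 between the groups on this measure, although the median of the single probe differences was -0.21.

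**Figure D2:**
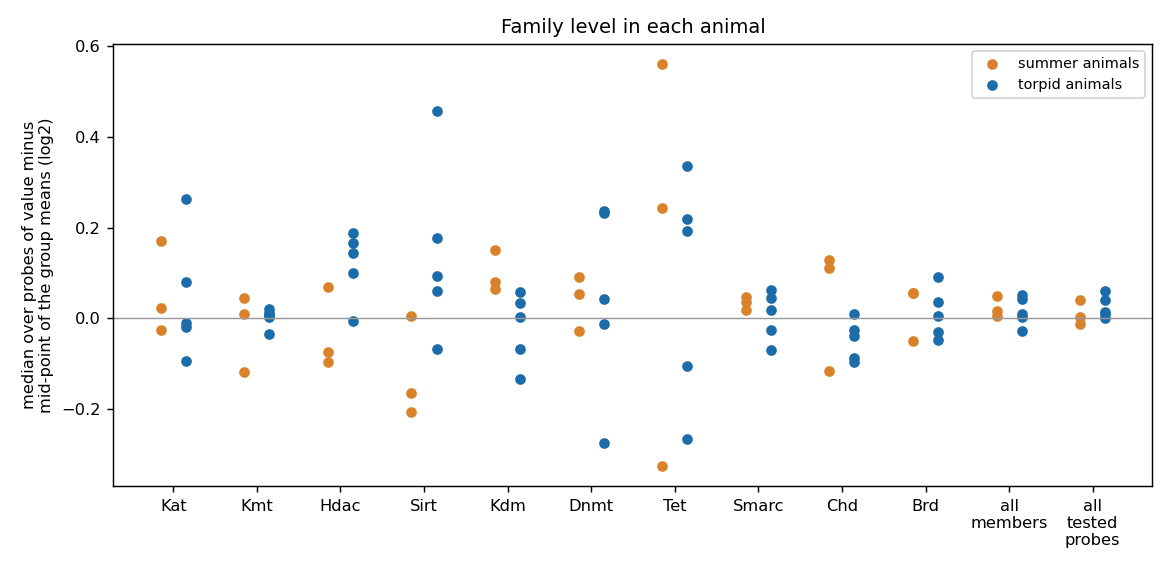
Median over the probes of a family in each animal, on the log2 scale relative to the mid-point of the 2 group means of each probe (vertical axis), for 3 summer and 5 torpid animals by family (horizontal axis). The torpid Kdm medians lie from -0.13 to 0.06, under the summer range of 0.06 to 0.15, and those of every other family overlap with summer.

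Among the acetyltransferases, the widest difference belonged to Kat6b, which acetylates histone H3. On MA10 probe 4432 the summer animals read -1.50, -2.05 and -2.63 and the torpid animals -0.70, -1.24, -0.95, -0.68 and -0.91. Every torpid animal lay above every summer animal, and the difference was 1.16 ± 0.38 (SE, n = 3 and 5; limma adjusted p = 0.237). The duplicates of summer animal 2 read -1.49 and -2.60 and those of torpid animal 5 -0.36 and -1.46, so that measurement error of a single RNA approached the size of the group difference. The only other Kat6b probe, on MA11, gave -0.13 ± 0.41. The differences of its relative Kat6a were -0.05, 0.65 and 0.45 over 3 probes.

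Kat14, a subunit of an acetyltransferase complex that serves as a transcription coactivator, was positive on 3 of 3 probes, with differences of 0.02, 0.04 and 0.90. The probe at 0.90 had a standard error of 0.60 and values in only 5 animals, and was at 0.10 with a floor on low values. Kat2b (PCAF) lay lower on both of its probes, at -0.73 ± 0.41 and -0.45 ± 0.38. The other genes of the family, Kat2a, Kat5, Kat7 and Kat8, ranged from -0.35 to 0.43.

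The deacetylase Hdac1, a catalytic subunit of the Sin3 and NuRD corepressor complexes, gave the only call under any setting tried, and that call depends on 1 animal. MA08 probe 1457 read 2.09, 2.17 and 3.89 in summer and 3.80, 3.64, 3.46, 4.07 and 3.46 in torpor. Summer animal 3 lay among the torpid animals, while summer animals 1 and 2 lay more than 1 log2 unit under each of them. The difference was 0.97 ± 0.37 (adjusted p = 0.351). Without summer animal 3 it was 1.55 ± 0.24, and limma's adjusted p was 0.025. With cyclic loess the difference over all animals was 0.62. The duplicates behind the low values themselves spread widely, with 1.58 and 2.60 for summer animal 1 and 2.79 and 1.55 for summer animal 2.

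A second Hdac1 probe on MA08 (4393) read -0.33, -0.48 and -0.15 in summer and 0.56, -0.13, 0.06, 0.14 and -0.05 in torpor. Its groups did not overlap, by a margin of 0.02, and the difference was 0.44 ± 0.21 (adjusted p = 0.464). The duplicates read 0.43 and -1.09 for summer animal 1 and -0.94 and -0.02 for summer animal 2. Single summer readings thus lay inside the torpid range. The MA07 probe of Hdac1 gave 0.24 ± 0.18 and the MA10 probe, which is dim, -0.66 ± 0.53. Hdac1 was therefore positive on 3 of its 4 probes.

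Hdac3, the catalytic subunit of the NCoR and SMRT corepressors, had 1 probe without overlap. On MA11 probe 2449 the summer values were 2.40, 2.25 and 1.98 and the torpid values 2.64, 2.82, 2.42, 2.55 and 2.61. The difference was 0.40 ± 0.22 (adjusted p = 0.514), and it was 0.01 with quantile normalization and -0.10 with cyclic loess. The other Hdac3 probe gave 0.11 ± 0.19. Hdac9, a class IIa deacetylase, was measured by 1 probe at 0.02 ± 0.24, with a 95% interval from -0.50 to 0.54.

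Hdac2, the close relative of Hdac1, gave 0.93 ± 0.44 and 0.45 ± 0.53 on its 2 probes. The first was 0.55 without summer animal 2 and the second, measured in 6 animals, -0.01 without summer animal 1. Hdac6, a mostly cytoplasmic deacetylase of tubulin, was lower on MA11, at -0.94 ± 0.40 (adjusted p = 0.400), where torpid animals 1 and 4 read -2.09 and -1.77 and the other 3 torpid animals from -0.58 to -0.43. Its MA08 probe gave 0.15 ± 0.23. Of the class IIa genes Hdac4 and Hdac5, the 4 probes ranged from -0.71 to 0.04.

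The sirtuins are deacylases that need NAD. Sirt1, the nuclear member that deacetylates the coactivator PGC-1alpha, was positive on 5 of 5 probes, from 0.11 to 0.75 with a median of 0.25. Its MA10 probe 4827 read -1.69, -1.90 and -1.45 in summer and -0.91, -0.72, -0.58, -1.18 and -1.23 in torpor. The groups did not overlap there, and the difference was 0.75 ± 0.36 (adjusted p = 0.437). The duplicates on this probe read -3.05 and -0.33 for summer animal 1 and -1.07 and -2.72 for summer animal 2. The separation thus held only for averaged values, since -0.33 lies above every torpid animal. The other 4 probes gave 0.28 ± 0.22, 0.25 ± 0.25, 0.16 ± 0.43 and 0.11 ± 0.27. The 95% interval of each of the 5 probes spans 0.

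Sirt3, the main deacetylase of mitochondria, gave opposite signs on different probes. MA11 probe 31 read 7.38, 8.66 and 8.20 in summer and 6.73, 7.11, 7.60, 6.99 and 6.77 in torpor. Torpid animal 3 lay above summer animal 1, and the difference was -1.04 ± 0.31 (adjusted p = 0.221). The other 3 Sirt3 probes were all positive, at 0.46 ± 0.25 and 0.45 ± 0.26 on MA11 and 0.27 ± 0.27 on MA08. The probes at 0.46 and 0.27 carry the same sequence accession on the 2 membranes.

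The negative Sirt3 probe belongs to a group of very bright MA11 spots that shared its direction. Of the 147 tested MA11 probes with a mean above 6 on the log2 scale, 138 were lower in torpor, with a median of -0.56, whereas the other 9292 MA11 probes had a median of 0.03. Sirt3 probe 31 and Kmt5b probe 1221 are the only 2 members in that group. With scalings that act on intensity, both differences were smaller. Sirt3 probe 31 was at -0.51 with quantile normalization (adjusted p = 0.548) and -0.47 with cyclic loess (adjusted p = 0.544). Kmt5b probe 1221 was at -0.19 (adjusted p = 0.833) and -0.30 (adjusted p = 0.721).

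Sirt5, which removes succinyl groups in mitochondria, had 2 probes, both without overlap and in opposite directions. MA11 probe 8813 read -0.54, -0.87 and -0.62 in summer and -0.37, -0.15, -0.48, 0.31 and -0.07 in torpor, a difference of 0.53 ± 0.24 (adjusted p = 0.434). MA08 probe 7389 read 1.07, 0.69 and 0.93 in summer and 0.62, 0.63, 0.33, 0.62 and 0.68 in torpor, a difference of -0.32 ± 0.19 (adjusted p = 0.55). The nearest MA08 values were 0.69 for summer animal 2 and 0.68 for torpid animal 5. The single Sirt7 probe gave 0.07 ± 0.41.

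**Figure D3:**
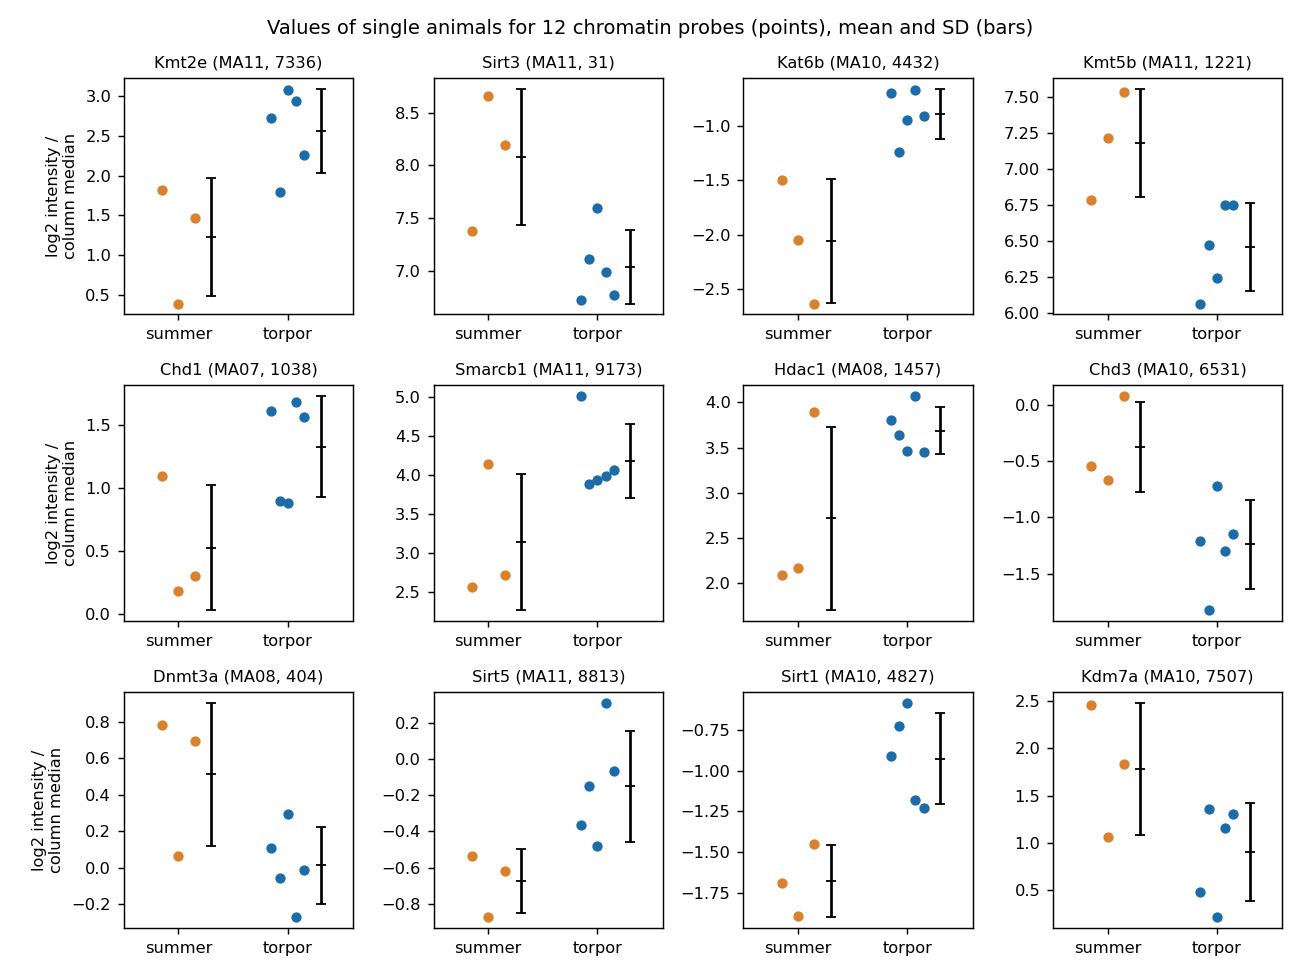
Values of single animals (points; vertical axis, log2 of intensity over the column median) in summer and torpor, with group mean and SD (bars), for the 12 chromatin probes with the smallest unadjusted p among those without overlap and those leading a family. Summer animal 3 of Hdac1 (MA08, 1457) lies at 3.89 among the torpid values. With duplicates averaged, the torpid values of Kat6b and of Sirt1 lie above all summer values.

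The largest difference of a probe measured in all 8 animals belonged to Kmt2e, a member of the MLL methyltransferase family that binds chromatin and is thought to lack strong enzyme activity. MA11 probe 7336 read 1.82, 0.39 and 1.46 in summer and 2.73, 1.79, 3.07, 2.95 and 2.26 in torpor. Torpid animal 2 lay just under summer animal 1, and the difference was 1.34 ± 0.37 (adjusted p = 0.184), or 0.92 without summer animal 2. The same sequence accession on MA08 gave -0.43 ± 0.24, with summer values of -0.29, 0.00 and 0.38 and torpid values of -0.49, -0.73, 0.07, -0.56 and -0.27. A further Kmt2e probe, MA07 1657, was lower in torpor without overlap. It read 1.29, 1.46 and 1.25 in summer and 1.04, 1.16, 0.95, 1.11 and 1.05 in torpor, a difference of -0.27 ± 0.16 (adjusted p = 0.541). The fourth probe gave -0.05 ± 0.64, so that 3 of the 4 Kmt2e probes were negative and the MA11 probe alone was positive.

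Kmt5b, which methylates histone H4, had the lowest of its 6 differences on the very bright MA11 probe 1221. This probe read 6.78, 7.21 and 7.53 in summer and 6.06, 6.47, 6.24, 6.75 and 6.75 in torpor, without overlap, a difference of -0.72 ± 0.26 (adjusted p = 0.310). The other 5 Kmt5b probes ranged from -0.37 to 0.45, and 4 of them were positive. Kmt2c, a subunit of an enhancer-marking histone H3 methyltransferase complex, had a probe without overlap on MA07 (3124). It read -0.55, -0.56 and -1.13 in summer and -0.35, -0.36, -0.51, -0.44 and -0.53 in torpor, a difference of 0.31 ± 0.19 (adjusted p = 0.559) that was 0.12 without summer animal 3. The 3 other Kmt2c probes gave -0.50, 0.02 and -0.62. Kmt2b was higher on its single probe, by 0.71 ± 0.30 (adjusted p = 0.393), and both Kmt2a probes were negative, at -0.36 and -0.23. Kmt2d had 0 tested probes.

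The differences of the 29 histone demethylase probes ran from -0.88 to 0.65, and 0 were called. For 19 of them the 95% interval lay within 1 log2 unit of 0. For the others a missing call does not show equal levels. The only Kdm probe without overlap was MA07 1525 of Kdm2b, the DNA-binding subunit of a Polycomb complex. It read 0.09, 0.02 and -0.08 in summer and -0.40, -0.41, -0.27, -0.23 and -0.09 in torpor, a difference of -0.29 ± 0.16 (adjusted p = 0.528). Torpid animal 5 lay just under summer animal 3. The other Kdm2b probe had the opposite sign, 0.59 ± 0.31.

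Kdm7a and Kdm5a were the 2 demethylase genes with at least 3 probes and a single sign. Kdm7a was negative on 4 of 4 probes, from -0.88 to -0.15. Its MA10 probe 7507 read 2.46, 1.07 and 1.83 in summer and 0.48, 1.37, 0.22, 1.16 and 1.31 in torpor. The difference there was -0.88 ± 0.43 (adjusted p = 0.444), with summer animal 2 inside the torpid range. It was -0.54 without summer animal 1. Kdm5a, which removes methyl groups from histone H3 at promoters, was negative on 4 of 4 probes, from -0.43 to -0.05, and each of its intervals spans 0.

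Kdm1a (LSD1), an amine oxidase that acts on histone H3, was measured by a single probe. It read -1.76, -1.62 and -1.79 in summer and -1.70, -1.84, -2.31, -1.68 and -1.88 in torpor, a difference of -0.16 ± 0.19 with a 95% interval from -0.58 to 0.27. Kdm3a gave 0.16 ± 0.23 and -0.67 ± 0.38 on its 2 probes. On the second of these, torpid animals 2 and 3 read -2.44 and -1.91 while the other 3 torpid animals, from -1.01 to -0.71, lay near the summer values of -0.78, -0.60 and -0.72. Kdm6a, which removes the Polycomb mark, ranged from -0.17 to 0.65 over 4 probes.

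Of the DNA methyltransferases, Dnmt1, which copies methylation onto newly made DNA, read 0.99, 0.77 and 0.76 in summer and 1.03, 0.66, 0.32, 0.55 and 0.30 in torpor. The difference was -0.26 ± 0.24, with a 95% interval from -0.78 to 0.25. Dnmt3a, which sets new methylation, spanned -0.69 to 0.66 over 4 probes. Its MA08 probe 404 had the smallest p of the family and read 0.78, 0.06 and 0.70 in summer and 0.11, -0.05, 0.30, -0.27 and -0.01 in torpor, a difference of -0.50 ± 0.23 (adjusted p = 0.433). The other Dnmt3a probes, all on MA10, gave 0.09 ± 0.43, -0.69 ± 0.43 and 0.66 ± 0.46. Dnmt3b gave 0.12 and 0.01, and Dnmt3l, a partner without catalytic activity, 0.35 ± 0.37.

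Tet2 had a probe of each sign. MA07 probe 8661 read 1.25, 0.69 and 1.64 in summer and 0.93, 0.68, 1.06, 0.74 and 0.73 in torpor, a difference of -0.36 ± 0.23 (adjusted p = 0.576). It was -0.14 without summer animal 3 and -0.62 without summer animal 2. The MA11 probe gave 0.33 ± 0.44, and its summer animals alone spanned from -1.04 to 1.55. Tet3 gave 0.28 ± 0.31 on its single probe.

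Smarca4 (Brg1) and Smarca2 (Brm) are the alternative ATPases of the SWI/SNF remodelling complex. Smarca4 was lower in torpor on MA10 probe 2345, which read 0.77, 0.95 and 2.13 in summer and -0.17, 0.97, 0.78, -0.13 and 0.34 in torpor. Torpid animals 2 and 3 lay within the summer range, and the difference was -0.93 ± 0.43 (adjusted p = 0.421), or -0.51 without summer animal 3. Its MA07 probes gave -0.58 ± 0.38 and 0.15 ± 0.23. Smarca2 gave -0.01 ± 0.28 and 0.52 ± 0.40.

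Smarcb1, a core subunit of the same complex, was higher on MA11 probe 9173 and lower on the 2 MA10 probes. The MA11 probe read 2.56, 4.14 and 2.71 in summer and 5.01, 3.88, 3.93, 3.99 and 4.05 in torpor. Summer animal 2 lay among the torpid animals, and the difference was 1.03 ± 0.38 (adjusted p = 0.319), or 1.54 without that animal. The MA10 probes gave -0.41 ± 0.50 and -0.27 ± 0.61. Of the remaining subunits, both probes of Smarcc1 and of Smarcd1 were negative, from -0.40 to -0.11. The accessory subunits Smarce1 (-0.49 and 0.39) and Smarcd2 (-0.24 to 0.30) had both signs. The ATPase Smarca5 of the ISWI complexes ranged from -0.21 to 0.56 over 3 probes.

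In the Chd family, Chd1, a remodeller found at actively transcribed genes, gave the smallest p. MA07 probe 1038 read 1.10, 0.19 and 0.30 in summer and 1.62, 0.90, 0.89, 1.68 and 1.57 in torpor, a difference of 0.80 ± 0.29 (adjusted p = 0.316). Summer animal 1 lay above torpid animals 2 and 3. The other Chd1 probes gave 0.31 ± 0.23 and -0.87 ± 0.45. Chd3, an ATPase of the NuRD complex, was lower without overlap on MA10 probe 6531, which read -0.54, -0.67 and 0.08 in summer and -1.21, -1.82, -0.72, -1.30 and -1.14 in torpor. That difference was -0.86 ± 0.38 (adjusted p = 0.402), and its MA07 probe gave -0.03 ± 0.43. On MA10 probe 6531 the duplicates read -1.58 and 0.49 for summer animal 1 and -0.24 and -1.10 for summer animal 2. Single readings of summer RNA thus reached into the torpid range, and the separation held only for averaged values.

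Chd4, the main NuRD ATPase, gave 0.43 ± 0.26, -0.17 ± 0.45 and -0.19 ± 0.21. On MA08 probe 709, which gave the 0.43, the summer animals read 3.19, 3.87 and 2.81 and the torpid animals 3.91, 3.93, 3.46, 3.48 and 3.84, so that summer animal 2 lay inside the torpid range. That difference was 0.26 with quantile normalization, 0.02 with cyclic loess, 0.72 without summer animal 2 and 0.20 without summer animal 3. Chd6 was lower on MA11, at -0.70 ± 0.29 (adjusted p = 0.383), and gave -0.11 ± 0.20 on MA07. The largest fitted difference of the family, 1.34 ± 0.59 for a dim Chd9 probe on MA10, rested on 5 animals and was 0.04 with a floor on low values, and the other Chd9 probes gave -0.08 and -0.36.

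Among the families, the bromodomain proteins with Brd symbols had the smallest median absolute difference. Their median standard error, 0.24 against 0.29 over all tested probes, was the lowest of the 10 families as well. The part of this lower noise in the small differences was not tested. The median absolute difference was 0.14, against 0.27 over all tested probes, and for 13 of 15 probes the 95% interval lay within 2-fold. The BET protein Brd2 was represented by 3 probes at 0.00, -0.17 and 0.04, and Brd3 by 4 at 0.13, 0.14, -0.04 and -0.55. The smallest p belonged to Brd1, a scaffold of acetyltransferase complexes, on MA07 probe 6230. It read 0.43, -0.06 and 0.73 in summer and -0.09, 0.29, -0.37, -0.23 and 0.05 in torpor, a difference of -0.44 ± 0.23 (adjusted p = 0.495) that was -0.25 without summer animal 3, and its 2 other probes gave 0.15 and 0.10. Brd7 and Brd9, subunits of SWI/SNF complexes, lay between -0.10 and 0.32.

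Probes of 1 gene often disagreed in sign. Of the 28 genes with at least 3 tested probes, 4 had a single sign (14.3%, against 23.1% of all genes with as many probes): Sirt1 and Kat14 were positive throughout, and Kdm5a and Kdm7a negative. Among the 57 member genes with 2 or more probes, 20 had a single sign (35.1%, against 38.3% of all genes on the membranes with 2 or more probes). Sequence accessions were shared by 3 pairs of probes on MA08 and MA11, and 2 of the 3 pairs had the same sign, with Smarcd2 at 0.30 and 0.06, Sirt3 at 0.27 and 0.46, and Kmt2e at -0.43 and 1.34.

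**Figure D4:**
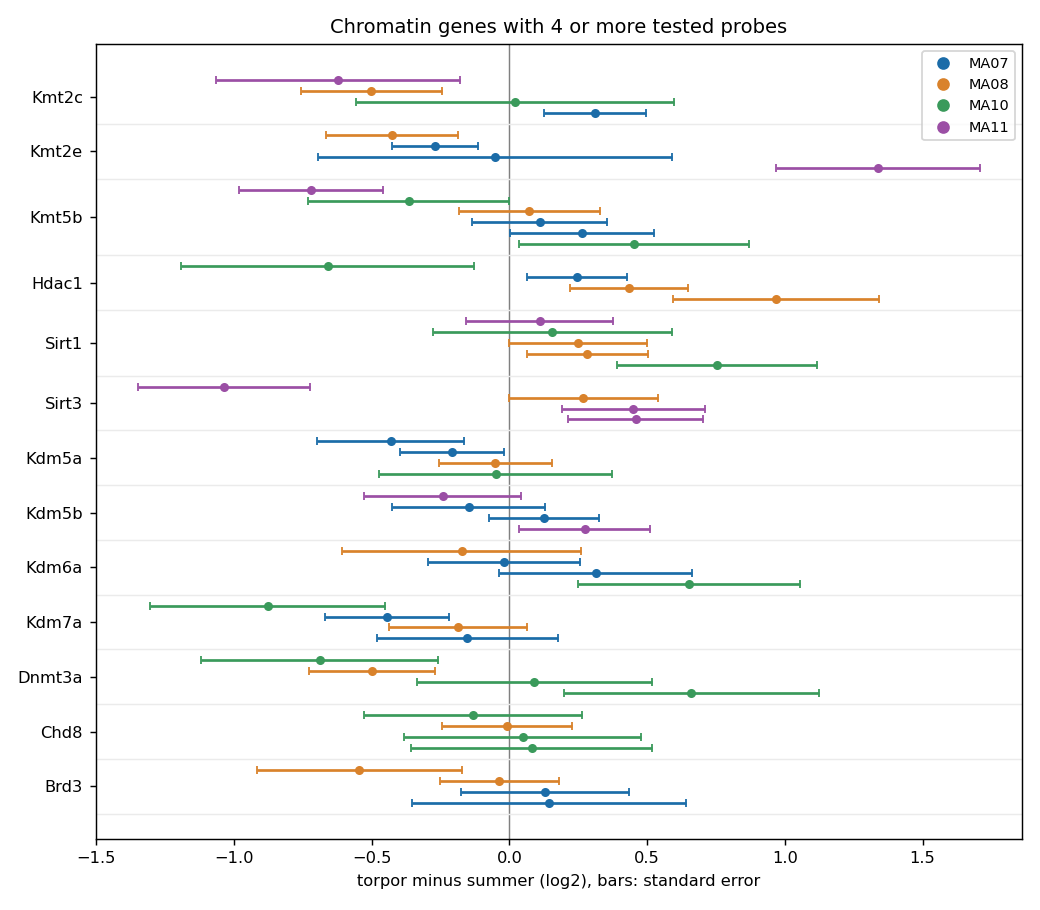
Torpor minus summer difference on the log2 scale (horizontal axis; bars are standard errors) for every tested probe of the chromatin genes with 4 or more probes (vertical axis), coloured by membrane. The Sirt1 points lie from 0.11 to 0.75 and the Kdm5a and Kdm7a points from -0.88 to -0.05, whereas the probes of Kmt2e range from -0.43 to 1.34.

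Other genes of the same machinery that the symbol rule does not reach, such as Polycomb proteins, chaperones and acetyltransferases under other names, were described as a list of 161 genes, of which 135 were measured by 360 probes. Of these probes 0 passed limma's adjusted p threshold, and at an unadjusted p under 0.05 there were 24 higher (6.67%) and 13 lower (3.61%) in torpor, against 6.39% and 5.18% of all probes. The median was -0.01. By sublist, bromodomain proteins under other names were negative on 24 of 31 probes, with a median of -0.27. Polycomb genes were positive on 32 of 49 probes, with a median of 0.09. Acetyltransferases under other names were positive on 26 of 42 (median 0.11) and DNA methylation readers and partners on 5 of 9 (median 0.14). The medians of the remaining sublists ranged from -0.06 to 0.02.

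Among those genes the smallest p belonged to Suv39h2, a methyltransferase of heterochromatin. MA07 probe 338 read 4.04, 1.96 and 4.01 in summer and 6.19, 5.40, 6.01, 4.90 and 5.29 in torpor. All torpid animals lay above all summer animals, the difference was 2.22 ± 0.48 (adjusted p = 0.104), and the other Suv39h2 probe gave 0.66. Ino80c, a subunit of the INO80 remodeller, was higher by 1.15 ± 0.29 (adjusted p = 0.142) and by 0.47 on its other probe, and the Polycomb protein Bmi1 was positive on 6 of 7 probes, up to 1.03 ± 0.29 (adjusted p = 0.203). In the other direction, the smallest p belonged to Ing1, a reader in the Sin3 complex, at -0.94 ± 0.21 (adjusted p = 0.118), to the SWI/SNF subunit Phf10 at -1.31 ± 0.34 (adjusted p = 0.161) and to the histone chaperone Nap1l1 at -1.41 ± 0.41 (adjusted p = 0.228). The 2 other Ing1 probes were positive, up to 0.25, the other Phf10 probe gave -0.20, and the other 4 Nap1l1 probes reached from -0.32 to 0.15.

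**Figure D5:**
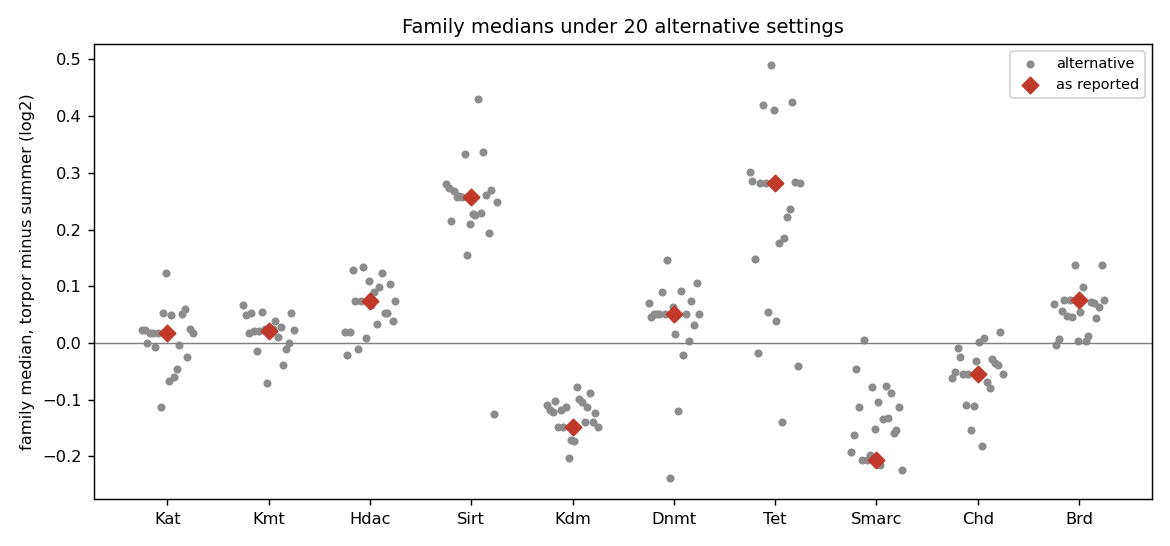
Family median of the torpor minus summer difference (vertical axis, log2) as reported (red diamonds) and under 20 alternative settings (grey points), by family (horizontal axis). The Kdm median stays between -0.20 and -0.08, whereas the Sirt median spans -0.12 to 0.43 and the Tet median -0.14 to 0.49.

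The sign of the Kdm median was negative under every one of the 20 alternative settings, which include other scalings, each animal left out in turn and 1 probe per gene. Settings that change only p-values, such as the variance model and the adjustment within each membrane, could not move any median. The Sirt median was positive under 19 of the 20 settings and -0.12 with 1 probe per gene. There Sirt3 is represented by its very bright MA11 probe and Sirt5 by its MA08 probe, both negative. Sirt1 and Sirt7 are represented there by positive probes. The Smarc median lay from -0.22 to 0.01 and reached the positive end when animals were weighted. The 4 untested probes, of Brd3, Brd8, Chd1 and Hdac10, had values in 2 to 4 animals.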

How the data were processed

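RNA of 8 squirrels was read on 4 membranes in 44 columns. The deposited values are spot intensity on a linear scale, which the authors had set relative to the median of the column. The sources used here do not say how images were read, how background was handled or why cells are empty (3.35% of member values). Empty cells were left out, the rest was put on the log2 scale without a floor, and duplicates of 1 RNA were averaged. The membranes were fitted separately in limma (version 3.58.1, R 4.3.3; lmFit and eBayes, two-sided). Probes needed at least 2 animals with a value in both groups. Benjamini-Hochberg adjustment ran over all 37848 tested probes, at a threshold of 0.05. The number of arrays limits the precision.

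Symbols come from the platform annotation, which can be old. The members and lists were chosen with earlier results of these data known, so families are described by counts and medians, with no test. Named probes were called members (0), the 6 smallest p in each direction among those without overlap, the smallest p per family, a set of genes named whatever their values, and the 3 smallest p per direction among related genes. Other probes were given for completeness. Alternatives covered scaling, a floor, dim probes, the variance model, animal weights, adjustment, duplicates, a replicate block, each animal, and probes per gene or accession. No probe sequence was used here.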

Additional observations from a re-analysis of the deposited data

Results flagged for a closer look

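Torpor values were checked for a single animal far from the other 4, for 59 groups of values (the named probes and the family medians), and 5 stood out, where chance flags about 1 in 20 groups. The ratio of the gap to the whole range was 0.846 for Smarcb1 on MA11 (probe 9173), where torpid animal 1 read 5.01 and the others from 3.88 to 4.05. It was 0.827 for Sirt5 on MA08 (probe 7389), where torpid animal 3 read 0.331 and the others from 0.616 to 0.676. For Hdac1 on MA07 (probe 5248) it was 0.841, with torpid animal 3 at 1.03 and the others from 0.939 to 0.954. That gap was small beside the duplicates of torpid animal 5 on the same probe, which read 1.17 and 0.71. For Tet2 on MA11 (probe 5904) it was 0.759, with torpid animal 4 at 0.169 and the others from 0.621 to 0.764. For Smarca2 on MA08 (probe 1265) it was 0.780, with torpid animal 4 at 0.020 and the others from 0.615 to 0.783.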

How the results depend on the processing

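The count of called members was 0 under 19 of 20 alternatives and ranged from 0 to 1 when each animal was left out, the 1 being Hdac1 (MA08, 1457) without summer animal 3. The median over the members was -0.037 with first duplicates only and 0.034 with 1 probe per gene, against -0.006 as reported; the cause was not tested. Hdac3 (MA11, 2449) was -0.10 with cyclic loess. With the replicate block 0 members were called and the median was 0.004. The numbers name different animals in the groups, so they do not pair them. Over probes with values in all animals, same-numbered animals correlated from -0.063 to 0.052, which would not show pairing at single probes. At most 28 members changed sign under an alternative. This was reached with the replicate block (171 members tested) and without summer animal 3 (174 members tested). Settings that keep the fitted differences, such as the variance model, could change no sign. Family medians had the other sign under some alternatives except for Kdm: 8 for Kat, 5 for Kmt, 3 each for Chd, Dnmt and Tet, 2 for Hdac, and 1 each for Brd, Sirt and Smarc. With quantile or cyclic loess scaling the median of all probes stayed within 0.00636 of 0. Over all probes the calls ranged from 17 to 347, against 117 as reported. The annotation used here names no clones, so accessions stood in for them. Signal over background could not be set from these values.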
